A study of Mus musculus with 2 samples.

Results

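Cadherins are calcium-dependent adhesion proteins whose extracellular repeats bind partners on neighbouring cells. The members described here were the rows of a deposited gene expression table whose symbol is Cdh followed by a number, begins with Pcdh, or is Celsr followed by a digit. They numbered 93 of 17359 rows: 23 numbered cadherins (18 classical and 5 others), 55 clustered protocadherins, 12 non-clustered protocadherins and 3 seven-pass cadherins of the Celsr family. The table compares mouse neural stem cells transfected with a scrambled siRNA (siSCR, genotype given as control) with neural stem cells transfected with an siRNA against Chd4 (siChd4, genotype given as Chd4 knockdown). Chd4 encodes the chromatin remodelling ATPase of NuRD, a complex that also removes histone acetylation. Each group is 1 library, so no difference below has a check against the spread between cultures, and no test between the conditions was possible. The labels name no strain, age, siRNA dose or time of harvest.

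Classical cadherins, with N-cadherin (Cdh2) as the main one of neural progenitors, join cells through their extracellular domains and hold the actin cytoskeleton through catenins. Clustered protocadherins are made from 3 gene arrays, Pcdha, Pcdhb and Pcdhg. In Pcdha and Pcdhg each variable first exon has its own promoter and is spliced to constant exons that the whole cluster shares, while each Pcdhb gene is a single exon. A neuron switches on a small, largely random choice of the so-called alternate isoforms, which gives it a surface identity, whereas the C-type isoforms (Pcdhac1, Pcdhac2, Pcdhgc3, Pcdhgc4 and Pcdhgc5) are used more uniformly. Promoter choice in the clusters depends on DNA methylation, the insulator protein CTCF and cohesin.

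The siSCR library held 19816811 estimated counts and the siChd4 library 20072009. Chd4 (Entrez 107932) was at 250 TPM (the deposited expression unit, scaled for transcript length and depth) in siSCR and 203 TPM in siChd4, a fold of 0.815 with a 95% counting interval of 0.795 to 0.836, so the target was lower by a small amount only. Of the neural stem cell markers, 11 of 11 had a mean of at least 1 TPM and 1 was at least 1.5-fold lower, with Sox2 at 314 TPM in siSCR and 336 TPM in siChd4. Neuronal and oligodendrocyte lineage markers were higher in siChd4. Of the neuronal list, 10 of 11 markers had a mean of at least 1 TPM, 5 passed 1.5-fold higher and 0 lower, and the sum was 529 TPM in siSCR against 712 TPM in siChd4. Of the oligodendrocyte lineage list, 9 of 11 markers had that mean, and 7 passed 1.5-fold higher and 0 lower. Their list summed to 176 TPM in siSCR against 311 TPM in siChd4. Gpr17, 1 of the 7, was at 0.270 TPM in siSCR and 2.27 TPM in siChd4 and reached the mean only through siChd4. Over all 12882 genes with that mean, 6.75% passed 1.5-fold higher and 4.47% lower. None of the markers in either list was at 0 in either library. The part of these cell types in the differences below was not tested, and in bulk RNA fewer cells of a type and less RNA per cell cannot be told apart.

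The log2 ratio used throughout is siChd4 over siSCR on TPM plus 1, a scale that shrinks ratios near 0 TPM. Plain TPM folds with their counting intervals stand beside it. A member counted as higher or lower when it was at least 1.5-fold apart on that scale and had a mean of at least 1 TPM over the libraries. Of the 93 members, 70 had that mean, 13 of them were higher and 2 lower. Over all 12882 genes with that mean, 6.75% were higher and 4.47% lower by the same rule. At a 2-fold limit, 2 members were higher and 0 lower, against 2.26% and 0.629% of all genes. The median log2 ratio was 0.23 over the 70 members and -0.04 over all genes, and 51 of the 70 members (72.9%) were above 0, against 44.5% of all genes. Longer transcripts had lower ratios in these libraries, and the 2856 genes of a similar length to the members had a median of -0.08. The 23 members under the mean were 8 Pcdha genes, Pcdhb1, Pcdhb13, Pcdh12 and 12 numbered cadherins. Of the 70, Pcdha10, Pcdhb3, Pcdhb8, Pcdhb12 and Pcdh20 reached the mean only through siChd4.

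**Figure D1:**
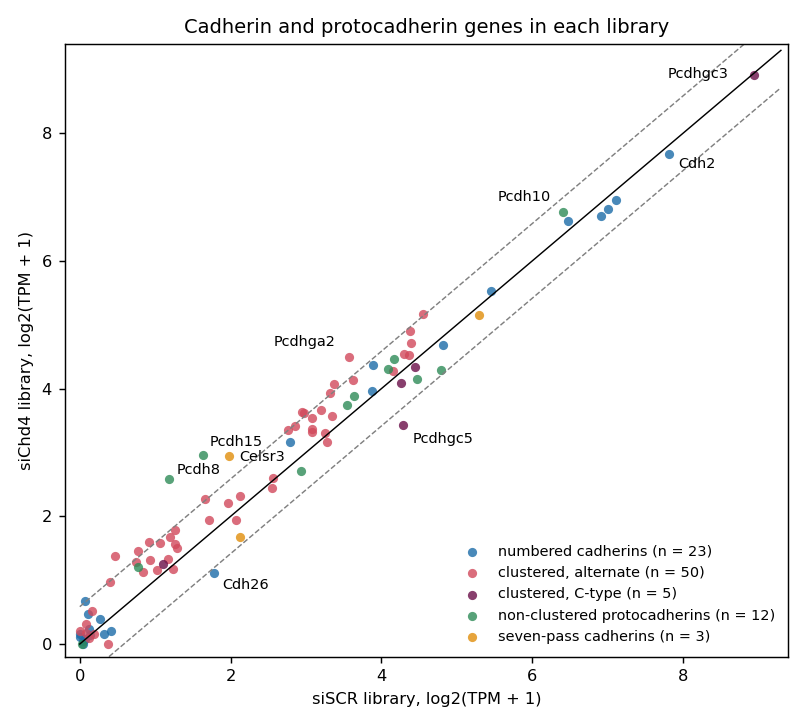
Level of each of the 93 members in the siSCR library (x axis) and the siChd4 library (y axis), both as log2(TPM + 1), coloured by subfamily. The solid line marks equal levels and the dashed lines 1.5-fold differences. Pcdh8, Pcdh15 and Celsr3 lie above the upper line among low genes, Pcdhgc5 and Cdh26 lie below the lower line, and the abundant Pcdhgc3 and Cdh2 lie near equality.

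The most abundant members were classical cadherins, Cdh13 and 2 protocadherins. Pcdhgc3, a C-type protocadherin, was at 492 TPM in siSCR and 482 TPM in siChd4 and made up 65.6% and 59.4% of the summed TPM of its cluster. Cdh2 was at 225 TPM in siSCR and 204 TPM in siChd4. Next in both libraries, in an order that differed between them, came Cdh4 (R-cadherin), Cdh13 (T-cadherin, which lacks a transmembrane domain and is held by a lipid anchor), Cdh20, Cdh11 and Pcdh10. With no replicates, the order of neighbours with close levels has no error of its own beyond counting.

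Type I classical cadherins differed little between the libraries. Cdh2 (Entrez 12558) had a fold of 0.908 (0.880 to 0.936) and Cdh4 (Entrez 12561) one of 0.897 (0.866 to 0.928), from 137 TPM in siSCR and 123 TPM in siChd4. Both intervals lay below 1, and neither gene neared a 1.5-fold difference. Their median log2 ratio was -0.15, against -0.12 for genes of a similar length. With the trend of the ratio over transcript length subtracted, the log2 ratio went from -0.14 to -0.05 for Cdh2 and from -0.16 to -0.01 for Cdh4. E-cadherin (Cdh1), the cadherin of epithelia, was listed at 0 counts in siSCR and 3 counts in siChd4, and P-cadherin (Cdh3) at 1 and 0. Neither reached a level that these depths can compare. Of the epithelial markers, 4 of 7 were in the table, 0 had a mean of at least 1 TPM, and their summed level was 1.11 TPM in siSCR and 0.370 TPM in siChd4. M-cadherin (Cdh15), known from skeletal muscle, had 1 count in siSCR and 14 in siChd4, a ratio of 13.8 on CPM (counts scaled to library depth only) with an interval of 2.10 to 584, at 0.05 and 0.60 TPM.

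Type II classical cadherins lay on both sides of equality. Of 13 genes, 7 had a mean of at least 1 TPM and 0 passed 1.5-fold in either direction. Over all genes with that mean, 6.75% passed higher and 4.47% lower, so 0 of 7 does not set these genes apart. Cdh24 was at 13.8 TPM in siSCR and 19.6 TPM in siChd4 (1.42-fold, 1.24 to 1.64). Cdh19, known from neural crest and glial precursors, was at 5.90 and 7.93 TPM (1.34-fold, 1.12 to 1.62), and the mesenchymal cadherin Cdh11 at 88.3 and 97.4 TPM (1.10-fold, 1.05 to 1.15). Cdh20 was lower, at 119 TPM in siSCR and 103 TPM in siChd4 (0.865-fold, 0.824 to 0.907). The intervals of Cdh6, Cdh10 and Cdh22 included 1. The other 6 genes, Cdh5, Cdh7, Cdh8, Cdh9, Cdh12 and Cdh18, were at 0.39 TPM or less in each library. VE-cadherin (Cdh5), the defining cadherin of endothelium, had 1 count in each. Together the 18 classical cadherins summed to 673 TPM in siSCR and 641 TPM in siChd4, a fold of 0.952 (0.936 to 0.969). On CPM the fold of this sum was 0.991, so its distance from 1 depended on the scaling.

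Of the cadherins outside the classical types, Cdh13 was at 128 TPM in siSCR and 112 TPM in siChd4 (0.875-fold, 0.836 to 0.917). Cdh26 was at 2.42 TPM in siSCR and 1.17 TPM in siChd4 (0.483-fold, 0.283 to 0.80), from 48.8 and 24.0 counts, and was 1 of the 2 members past 1.5-fold lower. Cdh16, Cdh17 and Cdh23 were at 0.31 TPM or less in each library.

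The clustered protocadherins divided by isoform type. This division was chosen after the values were seen. Of the 50 alternate isoforms, 40 had a mean of at least 1 TPM, and 36 of these were above 0. Of the 40, 10 passed 1.5-fold higher and 0 lower, and the median log2 ratio was 0.36. Over all genes with that mean, 44.5% were above 0, 6.75% passed higher and 4.47% lower. Pcdha10, Pcdhb3, Pcdhb8 and Pcdhb12 reached the mean only through siChd4, and Pcdha10 and Pcdhb8 are among the 10. The summed level of the 50 alternate isoforms was 280 TPM in siSCR and 383 TPM in siChd4, a fold of 1.37 (1.33 to 1.40). The 5 C-type isoforms summed to 551 TPM in siSCR and 529 TPM in siChd4 (0.959-fold, 0.941 to 0.978), with 1 above 0 and 4 below. On CPM the fold was 1.43 for the alternate isoforms and 0.999 for the C-type ones.

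Many Pcdha and Pcdhg reads come from sequence that several members share, and how the authors' estimation divided them is not known. In GENCODE M21 (mouse GRCm38), 41.2% to 54.2% of the 50-base windows of a Pcdhg transcript were also found in another Pcdhg gene, and for the 11 Pcdha genes matched there the share was 48.2% to 63.0%. For Pcdhb, the share was 0% to 12%. For classical cadherins, non-clustered protocadherins and the Celsr genes it was 0%. Windows were compared only within a cluster or within a type, such as type I or delta-2. Sharing between these groups, or with other genes, was not examined. Single Pcdha and Pcdhg members, and the split between alternate and C-type isoforms, are therefore uncertain in a way the counting intervals do not cover. Sharing among Pcdhb genes adds little of this uncertainty to them.

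The Pcdhg cluster was the most abundant of the 3, at 750 TPM in siSCR and 813 TPM in siChd4 (1.08-fold, 1.07 to 1.10). All 21 members had a mean of at least 1 TPM, and all 18 alternate isoforms were above 0, with log2 ratios from 0.04 to 0.92 and a median of 0.47. Over all genes with that mean, 44.5% were above 0. The intervals of the 18 alternate isoforms, which cover counting error only, lay above 1 in 16. The share of all genes with such an interval was not computed. The alternate isoforms summed to 218 TPM in siSCR and 301 TPM in siChd4 (1.38-fold, 1.34 to 1.42), and their share of the cluster went from 29.1% to 37.1% of TPM. Those of the A subfamily (12 genes, 150 and 212 TPM, 1.41-fold) and the B subfamily (6 genes, 68.3 and 89.4 TPM, 1.31-fold) were both higher. Single alternate isoforms ranged from 5.80 to 22.4 TPM in siSCR and from 8.84 to 35.0 TPM in siChd4.

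Pcdhga2 had the highest log2 ratio of the cluster, at 10.9 TPM in siSCR and 21.5 TPM in siChd4 (1.97-fold, 1.75 to 2.23), and 2.72% of all genes had a higher ratio. Pcdhgb4 was at 9.34 and 15.9 TPM (1.70-fold, 1.49 to 1.95) and Pcdhga1 at 6.69 and 11.5 TPM (1.71-fold, 1.47 to 2.01). Pcdhga3, Pcdhga4 and Pcdhgb1 also passed 1.5-fold. Pcdhga3 was the most abundant alternate isoform, at 22.4 TPM in siSCR and 35.0 TPM in siChd4.

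The C-type isoforms of the cluster differed from these and among themselves. Pcdhgc3 had a fold of 0.980 (0.960 to 1.0), and its log2 ratio of -0.03 turned to 0.01 with median-of-ratios, upper quartile or TMM scaling. Pcdhgc4, needed for the survival of many neurons, had a fold of 0.922 (0.836 to 1.02). Pcdhgc5, an isoform known from the maturing brain, was at 18.6 TPM in siSCR and 9.81 TPM in siChd4, from 682 and 380 counts, a fold of 0.528 (0.465 to 0.600). It was the lowest log2 ratio of all members, -0.86, and 1.30% of all genes had a lower one. Without Pcdhgc3, the cluster summed to 258 TPM in siSCR and 330 TPM in siChd4, a fold of 1.28.

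Along the Pcdhg cluster the log2 ratio tended to be lower toward the last genes. The 5 genes nearest the start of the cluster, Pcdhga1, Pcdhga2, Pcdhga3, Pcdhgb1 and Pcdhga4, all passed 1.5-fold higher. Of the remaining 16 only Pcdhgb4 did so, and Pcdhgc5 passed 1.5-fold lower. Over all genes with a mean of at least 1 TPM, 6.75% passed higher and 4.47% lower. Pcdhga12, the last alternate gene in the table, was near equality at 8.55 and 8.84 TPM, and the C-type genes follow it. Over the 21 genes the order and the log2 ratio had a Spearman rho of -0.79 and a Pearson r of -0.78, and over the 18 alternate genes alone -0.67 and -0.70. These are descriptions across genes of 1 pair of libraries, which share constant exons and so are not independent, and the order was examined after the values were seen.

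**Figure D2:**
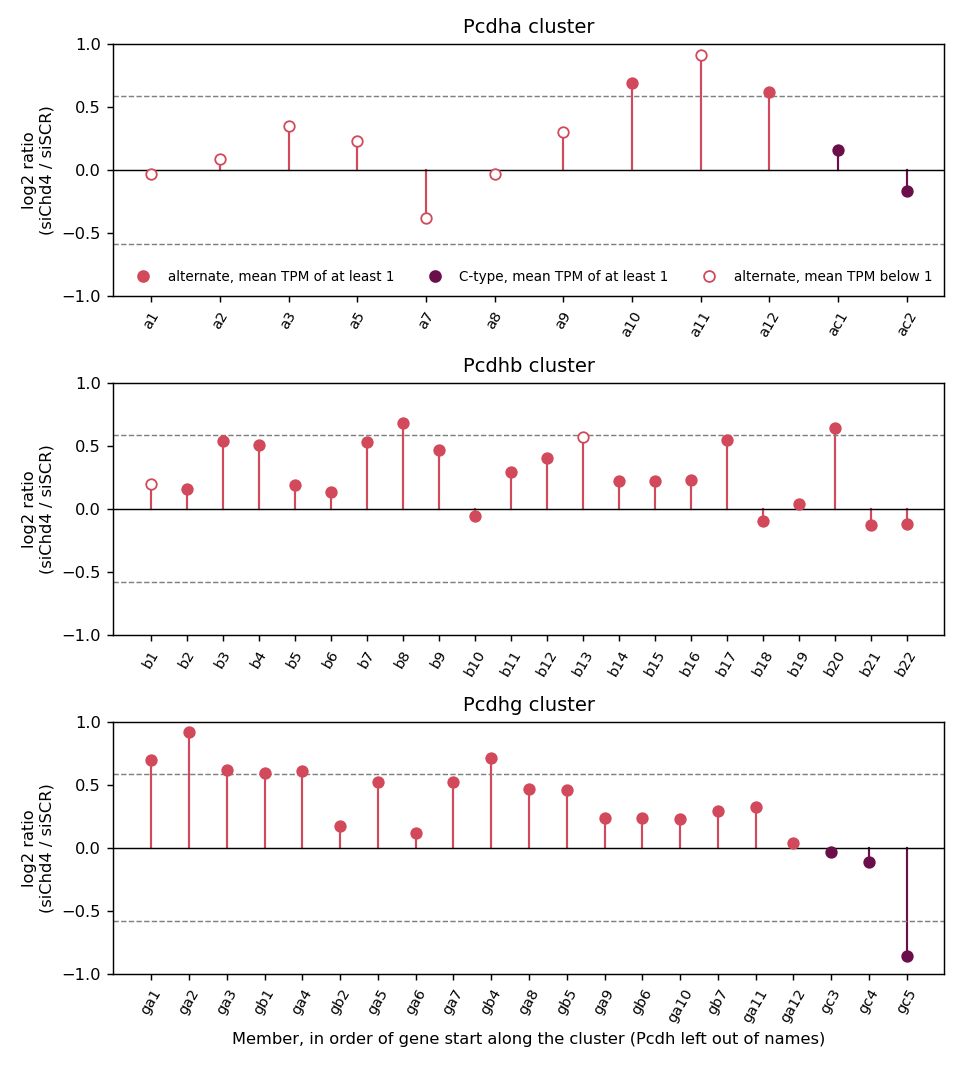
Log2 ratio (siChd4 over siSCR on TPM plus 1, y axis) of the members of the Pcdha, Pcdhb and Pcdhg clusters in their order along each cluster (x axis), with dashed lines at 1.5-fold. Filled points have a mean of at least 1 TPM, open points less, and dark points are C-type isoforms. In the Pcdhg cluster the values go from 0.70 at Pcdhga1 to -0.86 at Pcdhgc5, while Pcdhb values above and below 0 lie side by side.

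The Pcdhb cluster, whose genes share little sequence with each other, also had mostly higher values in siChd4. It summed to 56.4 TPM in siSCR and 72.1 TPM in siChd4 (1.28-fold, 1.2 to 1.37). Of 22 genes, 20 had a mean of at least 1 TPM, and 16 of these were above 0, against 44.5% of all genes. The median log2 ratio was 0.23. Of the 20, 2 passed 1.5-fold higher and 0 lower, where 6.75% and 4.47% of all genes did. Pcdhb3, Pcdhb8 and Pcdhb12 reached the mean only through siChd4. Pcdhb20 was at 6.86 TPM in siSCR and 11.2 TPM in siChd4 (1.64-fold, 1.36 to 1.98), and Pcdhb8 at 0.890 and 2.02 TPM (2.27-fold, 1.26 to 4.42) from 16.1 and 38.6 counts. Pcdhb17 followed, at 6.25 and 9.65 TPM (1.54-fold, 1.26 to 1.89), just short of the limit on the TPM plus 1 scale. The 3 lowest were Pcdhb21, Pcdhb22 and Pcdhb18, and their folds, 0.891, 0.910 and 0.917, had intervals that included 1. Pcdhb22 was the most abundant Pcdhb gene in siSCR, at 8.74 TPM against 7.95 TPM in siChd4, whereas Pcdhb20 was the most abundant in siChd4. Pcdhb1 (0 and 0.15 TPM) and Pcdhb13 (0.32 and 0.96 TPM) lay under the mean of 1 TPM. Counts were low, and 13 of the 20 intervals included 1. Along this cluster the Spearman rho of order and log2 ratio was -0.32 over the 20 genes with a mean of at least 1 TPM.

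The Pcdha cluster was the least abundant, at 24.1 TPM in siSCR and 26.8 TPM in siChd4 (1.11-fold, 1.02 to 1.21). Of its 12 genes in the table, 4 had a mean of at least 1 TPM. Pcdhac2, its most abundant isoform, was at 18.2 TPM in siSCR and 16.0 TPM in siChd4 (0.881-fold, 0.797 to 0.974), and its share of the cluster went from 75.4% to 59.8%. Pcdhac1 was at 1.14 and 1.39 TPM, with an interval that included 1. The 10 alternate isoforms summed to 4.78 TPM in siSCR and 9.36 TPM in siChd4, a fold of 1.96 (1.65 to 2.33), from 197 and 407 counts. Pcdha12 was at 2.15 and 3.84 TPM (1.79-fold, 1.37 to 2.34) and Pcdha10 at 0.700 and 1.75 TPM (2.50-fold, 1.59 to 3.93). Pcdha11, at 0.38 and 1.59 TPM (4.18-fold, 2.36 to 7.58), lay just under the mean of 1 TPM and was named after its value was seen, as was Pcdha7. Pcdha7 had 12.7 counts in siSCR and 0 in siChd4, 4.28-fold lower when siChd4 is set to a floor of 3 counts. The counting interval of its CPM ratio ran from 0 to 0.324. Pcdha7 is also the Pcdha gene with the largest share of windows held by other Pcdha genes, 63.0%. The other 6 genes under the mean were at 0.78 TPM or less in siSCR and 1.19 TPM or less in siChd4. In this cluster order and log2 ratio went the other way, with a rho of 0.22 over the 12 genes and 0.67 over the 10 alternate ones, 8 of which were under the mean of 1 TPM.

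**Figure D3:**
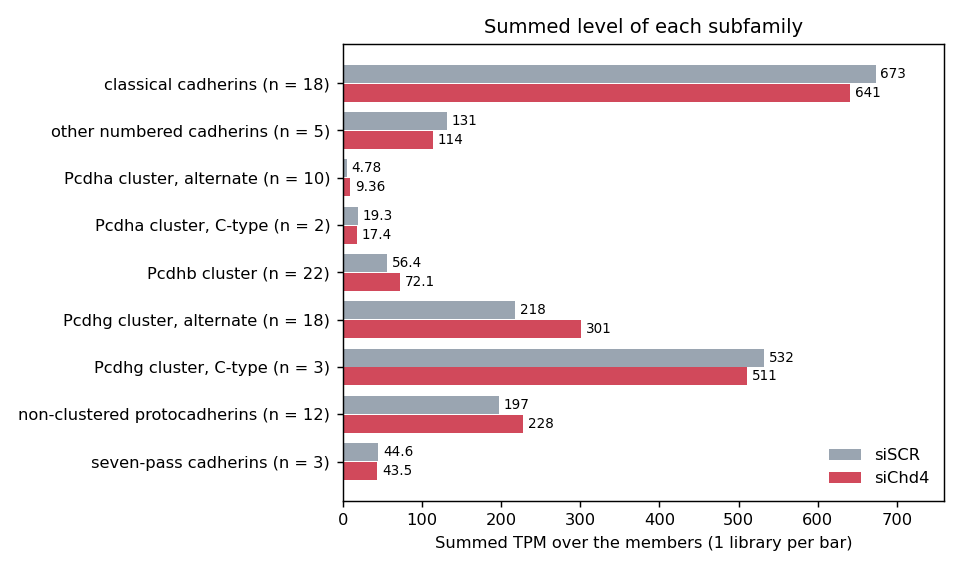
Summed TPM of each subfamily (x axis) in the siSCR library (grey) and the siChd4 library (red), with the number of genes beside each name and 1 library per bar. The alternate isoforms of Pcdhg go from 218 to 301 TPM and those of Pcdha from 4.78 to 9.36 TPM, while the C-type sums and the classical cadherins have bars of similar length in both libraries.

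The non-clustered protocadherins, single genes with their own promoters, summed to 197 TPM in siSCR and 228 TPM in siChd4 (1.16-fold, 1.13 to 1.19). Of 12 genes, 11 had a mean of at least 1 TPM, Pcdh20 among them only through siChd4. Of the 11, 8 were above 0, against 44.5% of all genes. Higher by 1.5-fold were 2 and lower 0, where 6.75% and 4.47% of all genes were. The median log2 ratio was 0.26, against -0.15 for genes of a similar length. The delta-1 genes, whose long cytoplasmic tails carry conserved motifs, lay on both sides of equality. Pcdh1 was at 17.0 and 21.1 TPM (1.24-fold, 1.13 to 1.36). Pcdh11x (11.4 and 13.8 TPM) and Pcdh9 (16.1 and 18.9 TPM) were also higher. Pcdh7 was lower, at 26.6 TPM in siSCR and 18.7 TPM in siChd4 (0.703-fold, 0.651 to 0.759).

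Among the delta-2 genes, Pcdh10, the most abundant non-clustered protocadherin, was at 83.8 TPM in siSCR and 108 TPM in siChd4 (1.29-fold, 1.24 to 1.34). Its share of the non-clustered sum was 42.4% in siSCR and 47.3% in siChd4. Pcdh19, the X-linked gene of a female-limited epilepsy, was at 10.7 and 12.4 TPM (1.16-fold, 1.06 to 1.28). Pcdh17, at 21.3 and 16.8 TPM (0.789-fold, 0.730 to 0.853), and Pcdh18, at 6.61 and 5.53 TPM (0.837-fold, 0.700 to 1.0), were lower. Neither passed the 1.5-fold limit.

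Pcdh8 (Entrez 18530), whose protein arcadlin is induced by activity at synapses, had the highest log2 ratio of all 70 members, 1.40. It was at 1.28 TPM in siSCR and 5.0 TPM in siChd4, from 38 and 160 counts, a fold of 3.91 (2.73 to 5.72), and 0.869% of all genes had a higher ratio. Pcdh15 (Entrez 11994), which forms the tip link of hair cells together with Cdh23, came next at 2.10 TPM in siSCR and 6.82 TPM in siChd4, from 151 and 508 counts (3.25-fold, 2.7 to 3.91). Its partner Cdh23 was at 0.10 TPM in both libraries, from 7.98 and 8.63 counts. Pcdh20 was at 0.71 and 1.30 TPM (1.83-fold, 1.15 to 2.97), and Pcdh12 had 1 count in siSCR and 0 in siChd4.

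The seven-pass cadherins, core components of planar cell polarity with cadherin repeats on an adhesion receptor, differed from each other. Celsr3 (Entrez 107934), known for axon tract formation in postmitotic neurons, was at 2.93 TPM in siSCR and 6.72 TPM in siChd4, from 273 and 658 counts, a fold of 2.29 (1.99 to 2.65). Celsr2, the most abundant, was at 38.3 and 34.6 TPM (0.905-fold, 0.860 to 0.954), and its log2 ratio turned from -0.14 to 0.10 with the length trend subtracted. Celsr1, the member of epithelia and early progenitors, was at 3.38 and 2.18 TPM (0.645-fold, 0.524 to 0.786). Its log2 ratio of -0.46 was within the limit, -0.72 and past it on CPM with TMM scaling, and -0.24 with the length trend subtracted. The sum of the 3 was 44.6 TPM in siSCR and 43.5 TPM in siChd4, with an interval of its fold of 0.933 to 1.02.

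**Figure D4:**
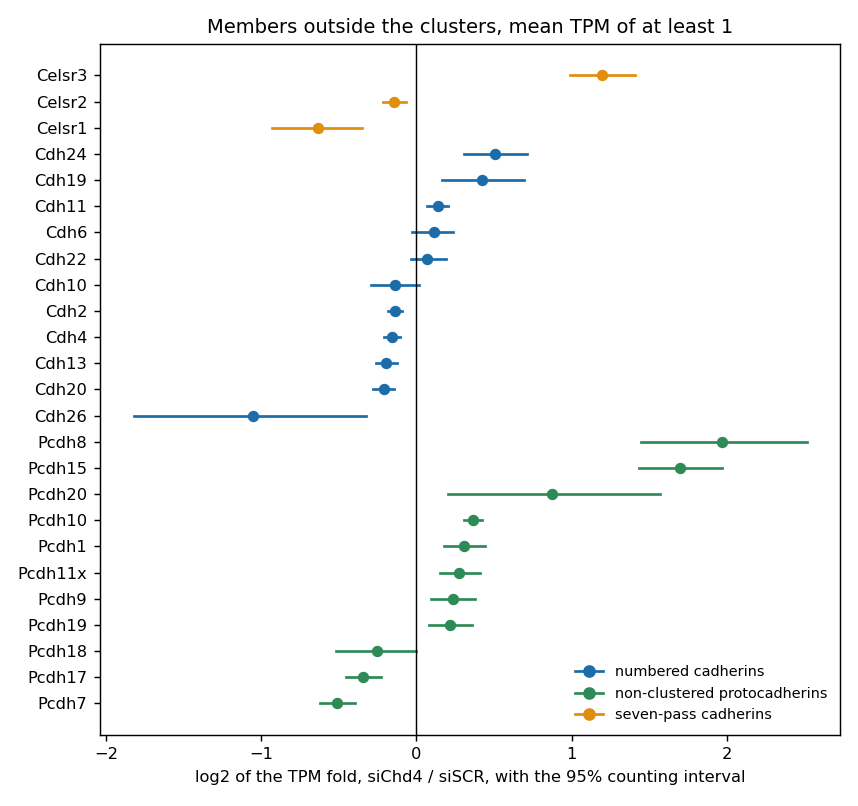
Log2 of the TPM fold (siChd4 over siSCR, x axis) of the members outside the clusters that had a mean of at least 1 TPM (y axis), with bars for the 95% counting interval, coloured by subfamily. Pcdh8, Pcdh15 and Celsr3 stand furthest to the right, Cdh26 has the lowest value and the widest interval, and the abundant Cdh2, Cdh4, Cdh13 and Cdh20 lie just left of 0.

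The 250 bases before the start of Pcdh8, Pcdh15 and Celsr3 are shown because these were the members outside the clusters that passed 1.5-fold higher, and those of Celsr2 because it is the near-equal paralog of Celsr3. They are RefSeq sequences of GRCm38.p6, a build older than the mm39 of the table, read 5′ to 3′ on the strand of the gene: chr14:79771313-79771562 (minus), chr10:73821617-73821866 (plus), chr9:108825795-108826044 (plus) and chr3:108415580-108415829 (minus). Capitals mark matches on either strand to short motifs, whose letters are given after the sequences: the GC box, the E-box, the TATA box and both ends of RE1, the element bound by the repressor REST.
Pcdh8: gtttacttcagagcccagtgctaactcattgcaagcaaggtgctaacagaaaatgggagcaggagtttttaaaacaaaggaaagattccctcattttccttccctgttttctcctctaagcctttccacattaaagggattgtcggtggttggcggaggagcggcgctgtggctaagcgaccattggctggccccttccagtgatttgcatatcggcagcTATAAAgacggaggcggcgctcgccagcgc
Pcdh15: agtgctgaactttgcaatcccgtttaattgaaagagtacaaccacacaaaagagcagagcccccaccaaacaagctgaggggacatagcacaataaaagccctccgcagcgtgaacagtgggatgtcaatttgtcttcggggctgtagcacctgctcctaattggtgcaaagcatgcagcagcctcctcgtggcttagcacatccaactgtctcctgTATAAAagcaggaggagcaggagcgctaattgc
Celsr3: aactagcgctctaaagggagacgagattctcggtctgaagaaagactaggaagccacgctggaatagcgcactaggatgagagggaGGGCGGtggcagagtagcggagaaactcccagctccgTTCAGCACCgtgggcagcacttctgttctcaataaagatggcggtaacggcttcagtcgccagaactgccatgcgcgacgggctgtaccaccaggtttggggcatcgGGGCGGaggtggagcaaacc
Celsr2: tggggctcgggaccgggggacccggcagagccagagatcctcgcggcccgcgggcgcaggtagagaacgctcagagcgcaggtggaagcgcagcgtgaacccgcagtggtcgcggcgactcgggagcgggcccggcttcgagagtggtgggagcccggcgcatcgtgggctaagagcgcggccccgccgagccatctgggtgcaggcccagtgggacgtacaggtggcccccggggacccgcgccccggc

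Of the 24 members with a sequence in that table, 2 held the TATA box letters TATAAA in this window, Pcdh8 and Pcdh15, where it begins 30 and 33 bases before the start. Over the 27025 genes of the table, 13.0% held it. The GC box letters GGGCGG were in 10 of the 24 and in 32.9% of all genes, with 2 matches in Celsr3 and 0 in Celsr2. The E-box letters CAGCTG were in 2 of the 24 (12.8% of all genes). The right end of RE1, searched as GGACAGC, was found only in Cdh15 among the 24 (5.29% of all genes). The left end of RE1, TTCAGCACC, was searched after the Celsr3 sequence had been seen, and was found in Celsr3 and Cdh9 (0.285% of all genes). No marked matches overlapped in the sequences shown. A match describes letters only: binding was not measured.

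Of the 12 listed regulators of the protocadherin clusters, 1 passed 1.5-fold lower and 0 higher, where 4.47% and 6.75% of all genes did. All 12 had log2 ratios below 0, with a median of -0.33 against -0.04 for all genes. Their lengths ran from 3494 bases (Rad21) to 9757 bases (Nipbl), and longer transcripts had lower ratios. The median was -0.04 for genes as long as the Pcdhb members and -0.22 for genes as long as the seven-pass cadherins. No comparison matched to the 12 in length was made. The gene past 1.5-fold lower was Rest, at 16.9 TPM in siSCR and 10.7 TPM in siChd4 (0.629-fold, 0.567 to 0.698). The cohesin subunit Rad21 was at 430 and 319 TPM (0.741-fold, 0.721 to 0.761), the maintenance DNA methyltransferase Dnmt1 at 200 and 164 TPM (0.818-fold, 0.793 to 0.845) and Ctcf, named after its value was seen, at 125 and 111 TPM (0.885-fold, 0.845 to 0.927). Whether these levels bear on the clusters was not tested.

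Of the intracellular partners of classical cadherins, 1 of 9 measured catenin genes passed 1.5-fold higher and 0 lower, where 6.75% and 4.47% of all genes did. The higher gene was Ctnna2, the neuronal alpha-catenin, at 24.3 TPM in siSCR and 41.9 TPM in siChd4 (1.73-fold, 1.58 to 1.89). Beta-catenin (Ctnnb1) was at 726 and 700 TPM (0.964-fold, 0.946 to 0.983) and alpha-E-catenin (Ctnna1) at 178 and 162 TPM. Of the 5 measured nectin and afadin genes, Nectin2 passed, at 17.9 and 28.6 TPM (1.60-fold, 1.39 to 1.85). None of the 6 proteases that cut cadherins passed: Adam10, which sheds N-cadherin, was at 156 and 158 TPM. Of 5 measured repressors of the epithelial cadherin programme 0 passed, with Zeb1 at 327 and 284 TPM and Tcf4 at 198 and 167 TPM.

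Of the 7 Fat and Dachsous pathway genes, 5 had a mean of at least 1 TPM. Of these, 1 passed 1.5-fold higher and 2 lower, where 6.75% and 4.47% of all genes did. Fat3 was at 9.97 TPM in siSCR and 6.13 TPM in siChd4 (0.615-fold, 0.565 to 0.669) and Fat4 at 18.7 and 12 TPM (0.643-fold, 0.603 to 0.685), the 2 lower genes. Fat1 was at 113 and 80.2 TPM (0.707-fold, 0.689 to 0.726). Longer transcripts had lower ratios, and the lengths of Fat3, Fat4 and Fat1 were 18138, 16286 and 14740 bases. Genes of a length similar to the seven-pass cadherins, with a median length of 9810 bases, had a median log2 ratio of -0.22. No median was taken for genes as long as the Fat genes. The log2 ratios of Fat3 and Fat4, -0.62 and -0.60, were just past the limit. Dchs1, the ligand of Fat4, was named after its value was seen, at 32.0 and 47.3 TPM (1.48-fold, 1.41 to 1.55). Fjx1, the mouse counterpart of fly Four-jointed, was at 112 and 174 TPM (1.55-fold, 1.47 to 1.64). None of the 12 core polarity partners of the Celsr proteins passed 1.5-fold, and their median was 0.01. Fzd3, which acts with Celsr3 in axon guidance, was at 71.6 and 49.2 TPM (0.687-fold, 0.663 to 0.712), and Dvl3 at 83.0 and 89.1 TPM. Among desmosomal cadherins, calsyntenins and cadherin-related genes, 9 of 14 were in the table, 5 had a mean of at least 1 TPM and 2 were past 1.5-fold higher, Cdhr1 (0.790 and 3.42 TPM, 4.33-fold, 2.83 to 6.81) and Clstn2 (0.940 and 2.02 TPM, 2.15-fold, 1.67 to 2.76). Both reached the mean of 1 TPM only through siChd4, where they were high. Clstn1, the most abundant of them, was at 186 and 229 TPM.

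Of the other cell types that a neural culture could hold, endothelial markers (6 of 7 in the table) summed to 3.41 TPM in siSCR and 4.77 TPM in siChd4 and fibroblast markers (8 of 8) to 10.6 and 18.8 TPM. Among the fibroblast markers, Dcn and Lum were at 0 in siSCR. Microglia markers (6 of 7) summed to 7.19 and 36.8 TPM, nearly all of it from P2ry12 (6.84 and 36.1 TPM), with Aif1 at 0 in siSCR. Schwann cell and neural crest markers (5 of 6) summed to 12.5 and 28.2 TPM. Astrocyte markers summed to 1397 and 1829 TPM. Of 8, 1 was past 1.5-fold higher and 2 lower, where 6.75% and 4.47% of all genes were. The part of these cells in the members' levels was not tested.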

How the data were processed

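RNA was sequenced from 2 libraries of mouse neural stem cells, 1 per group, grouped by the treatment labels. Kit-extracted total RNA went into standard Illumina libraries, per the labels. The deposited table gives FPKM, TPM and estimated counts per gene and library, per the file headers. The deposited counts are estimated counts, since 16.0% (siSCR) and 17.8% (siChd4) of values were whole to within 1e-09, and the rest carried decimals. Each deposited TPM column sums to 1000000. FPKM was scaled by the authors to transcript length and library size. The submitters' processing notes name mm39 as the build. The aligner, counting tool, annotation and strandedness were not given in the sources used here.

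Log2 ratios were computed on TPM with a pseudocount of 1. Counts of genes past a limit, and medians, used the 12882 genes with a mean of at least 1 TPM. Intervals are exact Clopper-Pearson 95% intervals from estimated counts rounded to whole numbers. They cover counting error only, and neither the spread between cultures nor the division of shared reads. PCR copies of 1 molecule can be read more than once, so the counting error itself may be larger than the intervals. A floor of 3 counts was 0.151 (siSCR) and 0.149 (siChd4) CPM. Genes of a similar length had 0.8 to 1.25 times the median length of the members. Intervals and the length trend were tested on simulated counts, drawn independently for each gene and without genes of low siSCR counts. That test does not cover intervals from few counts or reads divided among shared exons. Named genes were every member with a mean of at least 1 TPM, with up to 3 highest and lowest and the most abundant per cluster, the members of each pathway list past 1.5-fold, the 2 most abundant, and Chd4. Other names were chosen after their values were seen. Some genes of the lists are not reported here by name. The members and lists were chosen with earlier results of these data known. Sequence sharing used the longest coding transcript of each gene in GENCODE M21, in windows of 50 bases compared within each subfamily. Gene order came from RefSeq GRCm38. Alternatives were upper quartile and median-of-ratios scaling, a pseudocount of 0.1, CPM with TMM scaling (edgeR 4.0.16 in R 4.3.3), FPKM, no filter or a mean of at least 5 TPM, a 2-fold limit, an interval that excludes 1, the mean in place of the median, and subtraction of the length trend (lowess, span 0.3, statsmodels 0.14.6). The isoform types, the sums without Pcdhgc3 and unscaled CPM were added after the data were seen.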

Additional observations from a re-analysis of the deposited data

How the results depend on the processing

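Of 490 values of the 70 members under other settings, 454 stayed within the counting interval, 36 moved. The sign turned in 7 values of 2 members, none of them past 1.5-fold: Pcdhgc3 went from -0.03 to between 0.01 and 0.05 under 6 settings, and Celsr2 from -0.14 to 0.10 with the length trend subtracted. Of the higher members, a pseudocount of 0.1 gave 20 in all and 16 clustered, FPKM 6 clustered, a mean of at least 5 TPM 7 in all and 0 outside the clusters, and a 2-fold limit 2 in all and 0 clustered. The share of all genes past the limit upward and downward was 8.45% and 5.74% at the pseudocount of 0.1. It was 5.6% and 2.29% for FPKM, and 6.99% and 3.84% under TMM scaling. At the 2-fold limit it was 2.26% and 0.629%. For a mean of at least 5 TPM the share of all genes was not computed, so the counts under that filter have no background beside them. Of the lower members, a pseudocount of 0.1 and TMM scaling each gave 2 outside the clusters, Cdh26 and Celsr1. FPKM gave 1 in all and 0 outside the clusters, as did a mean of at least 5 TPM, and a 2-fold limit gave 0 in all, 0 clustered and 0 outside. A stricter limit or filter leaves fewer members by construction, and a smaller pseudocount enlarges low genes' ratios. With a mean of at least 5 TPM the median of the Pcdha cluster was -0.17, since Pcdhac2 alone was left. With the length trend subtracted the median was 0.43 for the non-clustered protocadherins and 0.10 for the seven-pass cadherins, whose mean ratio was 0.12. The fold of the summed Pcdhg level was 1.13 on counts and on FPKM and 1.11 with median-of-ratios or upper quartile scaling. For non-clustered protocadherins it was 1.21 on FPKM and 1.19 with either scaling. For classical cadherins it was 0.991 on counts and on FPKM, 0.980 with median-of-ratios and 0.979 with upper quartile scaling. The cause of the differences in these sums was not tested. Other scalings moved the median of all genes by at most 0.05. No replicate could be left out. No paired analysis was possible because there was a single library for each treatment. Depth limits members near the floor of 3 counts.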
